A study of Glycine max with 6 samples.

Results

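Sugar transporters, invertases and sucrose synthases were followed as a group of 130 genes among the 48667 genes listed in soybean roots. A gene was taken as a member when its protein description in the deposited files named a sugar transport protein, a bidirectional sugar transporter or SWEET, a sucrose transport protein or sucrose transporter, a polyol transporter, a sugar transporter ERD6, an invertase (invertase inhibitors left out) or a sucrose synthase. By these words, 30 genes were SWEET transporters, 23 were STP hexose transporters, 19 were sucrose transporters, 18 were polyol transporters, 16 were ERD6-like transporters, 12 were neutral invertases and 12 were sucrose synthases. Of the members, 7 are new loci assembled by the authors, and the others carry Glyma identifiers of the genome build Williams82.a2.v1.

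RNA was sequenced from roots of acid-treated plants at pH 4.2 and of control plants at pH 5.8, with 3 libraries for each pH. Seedlings stood for 30 days in hydroponic culture, in a nutrient solution whose pH was readjusted daily, and each replicate pooled the roots of 2 plants. The study's methods name the genotype as Huachun 6, whereas the sample titles carry the name YC03-3 at both pH-treatments. The methods name harvested roots and describe no separation of root tissues. A gene can thus be lower because fewer cells of a type were present or because each cell held less RNA, and these cannot be told apart.

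Roots are supplied with sucrose from the leaves through the phloem. Sucrose transporters of the SUC family move sucrose together with protons, and SWEET proteins let sugars pass down their gradient without protons. Within cells, sucrose is split by sucrose synthase, which yields UDP-glucose and fructose, or by invertases, which yield glucose and fructose. STP transporters take up hexoses from the cell wall space by proton symport. Polyol transporters carry sugar alcohols and some monosaccharides by the same means, and the ERD6-like transporters studied in Arabidopsis lie in the vacuole membrane.

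Library totals ranged from 9137226 to 9335903 expected counts in acid-treated roots and from 9286525 to 9358750 in control roots. Control libraries were more variable than acid-treated ones, with a median coefficient of variation of 26.4% against 18.8% in acid-treated libraries over the 33490 genes tested. For the 71 members tested, the medians were 18.9% in acid-treated and 28.0% in control libraries. Control replicate 2 lay within the range of the acid-treated libraries in 37 of these 71 members (52.1%, against 47.0% of all genes tested). Control replicate 1 did so in 25 (35.2%, against 39.1% of all genes tested) and control replicate 3 in 15 (21.1%, against 28.6% of all genes tested). Casparian strip membrane proteins, which mark the root endodermis, were detected in each library, with summed FPKM (expression scaled to transcript length and library size) of 102 to 125 in acid-treated and 38.3 to 122 in control roots. The 34 genes described as chlorophyll a-b binding, which are usual in green tissue, also summed to 991 to 1485 FPKM in acid-treated and 752 to 1423 FPKM in control roots. None of the genes on either marker list was called by edgeR.

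Levels of the members differed widely. Over the 6 libraries, 3 members had a mean of at least 100 FPKM, 28 of at least 10 FPKM and 69 of at least 1 FPKM, while 61 stayed below 1 FPKM. Of the 130 members, 71 had enough counts for a test, and 45 of the remaining 59 never reached 10 counts in a library. A gene could pass the filter through its counts at a single pH, so the following counts over tested members are descriptions.

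Very few members passed the adjusted threshold. With edgeR's quasi-likelihood test, genes were called at a Benjamini-Hochberg adjusted p-value under 0.05 together with a fold change of 2 or more, which held for 0.558% of the 33490 genes tested. A single member, the hexose transporter gene Glyma.06G103900, was called lower in acid-treated roots (background, 0.331%), and 0 of the 71 were called higher (background, 0.227%). That gene was included by name with its result already known, so its call is a description and is not weighed against the background. At an unadjusted p-value under 0.05, 9 members were higher (4.21% of all genes tested) and 6 were lower (7.61% of all genes tested) in acid-treated roots. DESeq2, the tool of the study, called 5 members higher and 3 lower among the 84 to which it gave an adjusted p-value (background, 1.22% higher and 1.55% lower). The FPKM of the 3 acid-treated libraries lay wholly above those of the 3 controls in 9 of the 71 members (12.7%, against 6.66% of all genes tested) and wholly below in 6 (8.45%, against 9.79% of all genes tested). Positive log2 fold changes, which mean higher in acid-treated roots, were found in 47 of the 71 members (16651 of all 33490 genes tested) and negative ones in 24. Their median was 0.12, while the median of all genes tested was -0.0027. Calls depended on single libraries. Without control replicate 2, edgeR called 3 members higher and 2 lower, and without acid-treated replicate 2 it called none. The shares of all genes called in these fits are not given. Separation rose over all genes tested too, from 16.4% without overlap to between 21.4% and 36.3% with 1 library left out. It was highest without control replicate 2.

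**Figure D1:**
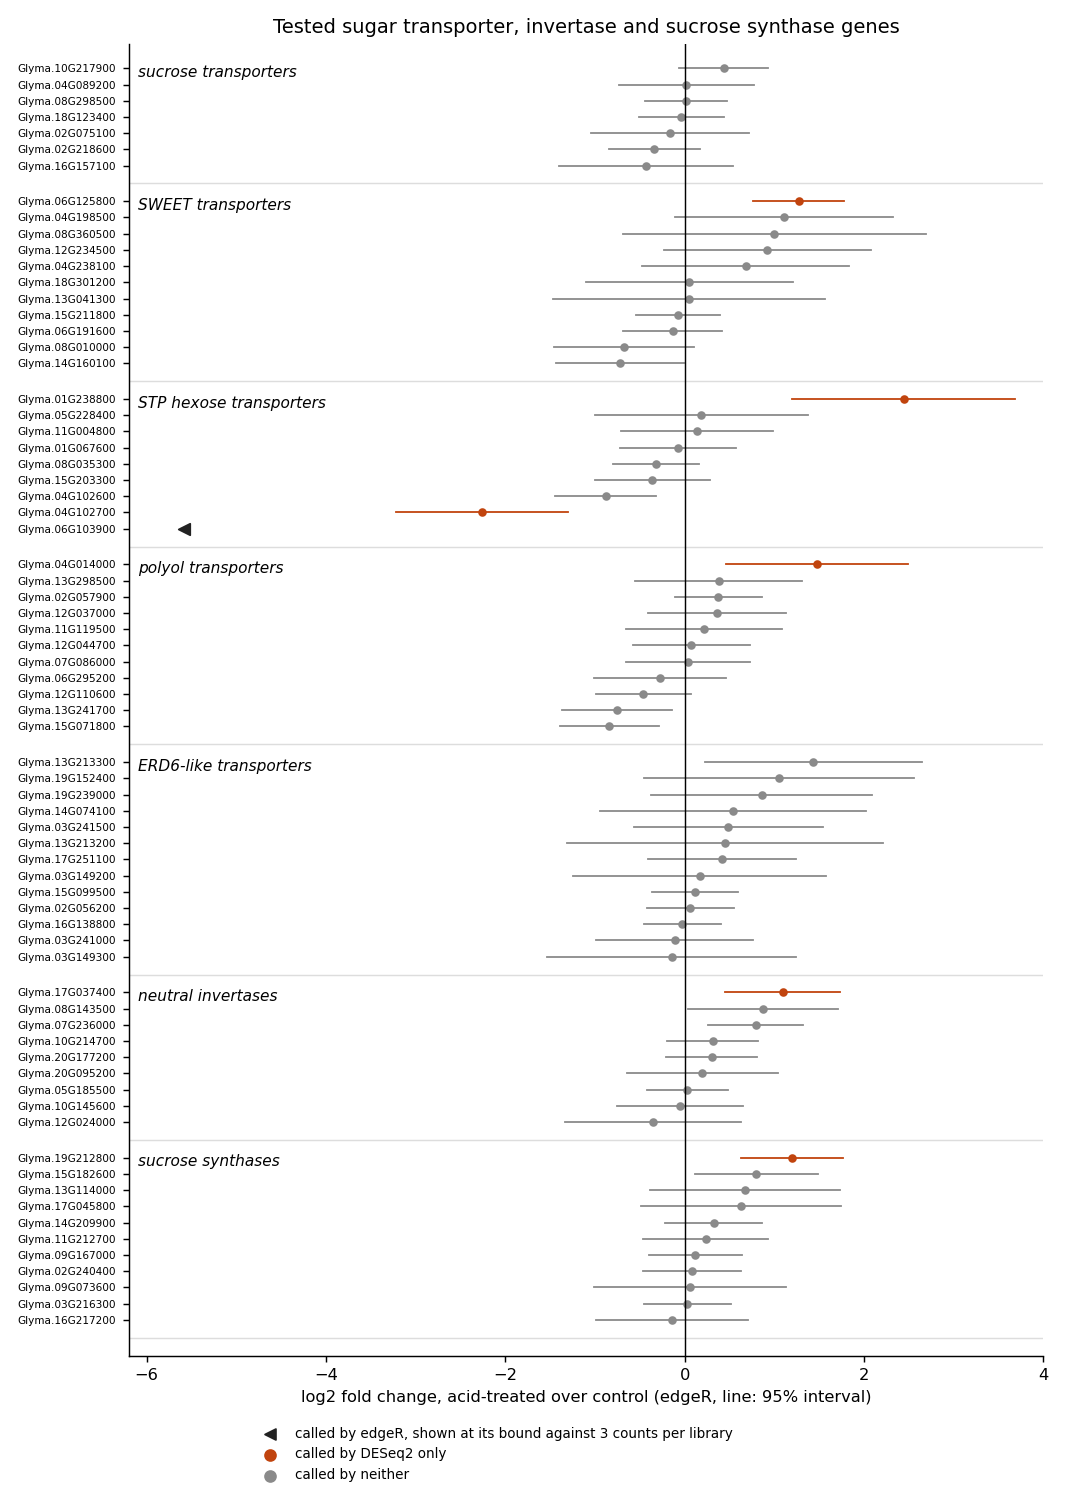
Log2 fold changes (acid-treated over control, horizontal axis) from edgeR with 95% intervals for the 71 tested members, ordered by size within 7 role groups. The black triangle shows Glyma.06G103900 at -5.58, the bound that 3 counts per acid-treated library allow, orange points are the 6 tested members called by DESeq2 only, and grey points are the members called by neither tool.

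Sucrose synthases made up the largest part of the signal. Their summed FPKM was 1433, 1487 and 1730 in acid-treated roots, against 513, 1735 and 845 in control roots, with means of 1550 ± 158 and 1031 ± 632 (SD, n = 3). The control sum thus spanned the whole acid-treated range, with control replicate 2 at the level of the highest acid-treated library. By group means, sucrose synthases held 64.6% of the summed FPKM of all members in acid-treated roots and 54.3% in control roots. Their share differed among the controls, with 1735 of 2591 FPKM in control replicate 2. It was lower in control replicates 1 and 3, with 513 of 1285 and 845 of 1820 FPKM. Glyma.17G045800, the most abundant member, had 760, 726 and 884 FPKM in acid-treated roots, against 239, 899 and 416 FPKM in control roots. Glyma.13G114000, whose RefSeq symbol is SS, had 489, 577 and 641 FPKM in acid-treated roots, against 185, 621 and 281 FPKM in control roots. In both genes, control replicate 2 resembled the acid-treated libraries and the other controls were lower. Log2 fold changes were 0.63 (95% interval -0.49 to 1.75) for Glyma.17G045800 and 0.67 (95% interval -0.39 to 1.73) for Glyma.13G114000, with adjusted p-values of 0.680 and 0.640 from edgeR. Without control replicate 2 these log2 fold changes were 1.31 and 1.32, still without a call by edgeR. Without control replicate 1 they were 0.29 and 0.36. The summed sucrose synthase FPKM in acid-treated roots was 2.28 times that in control roots without control replicate 2 and 1.20 times without control replicate 1. Both genes had counts that were not whole numbers in each library. In each library their counts added up to a whole number, as with 18635.84 and 12569.16 in acid-treated replicate 1. Reads were therefore divided between these genes. The ratio of Glyma.17G045800 to Glyma.13G114000 within a library was 1.40 ± 0.15 in acid-treated and 1.41 ± 0.10 in control roots (SD, n = 3). Shared reads could themselves steady this ratio, so the like levels of both genes are not independent observations. Of the marker lists examined, only the Casparian strip membrane proteins followed the control order of the sucrose synthase sum, with 38.3, 122 and 85.0 FPKM in replicates 1, 2 and 3. Genes described as chlorophyll a-b binding did not, with 1237, 752 and 1423 FPKM in these replicates. A part of either in the sucrose synthase levels was not tested.

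Another sucrose synthase separated the pH-treatments without the gap among controls. Glyma.19G212800, described as sucrose synthase 2, had 52.5, 49.4 and 38.7 FPKM in acid-treated roots, against 16.6, 19.4 and 26.4 FPKM in control roots. Each acid-treated library lay above each control. The level was 2.30-fold higher (95% interval of the log2 fold change 0.63 to 1.77), with an adjusted p of 0.0934 from edgeR and 4.09e-04 from DESeq2, and edgeR did not call it in any of the fits that left out 1 library. Glyma.14G209900, a sucrose synthase 6-like gene chosen after its values were seen, was the other gene of this group without overlap, at 3.59, 3.39 and 3.30 FPKM in acid-treated roots, against 3.02, 3.10 and 2.21 FPKM in control roots. Its log2 fold change was only 0.32 (adjusted p = 0.663 from edgeR). Of the 11 sucrose synthase genes tested, 10 had a positive log2 fold change (16651 of all 33490 genes tested), and the median was 0.23. For 2 of these genes the unadjusted p-value from edgeR was under 0.05 (4.21% of all genes tested). The exception, named for that reason, was Glyma.16G217200 at -0.14, with overlapping libraries.

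**Figure D2:**
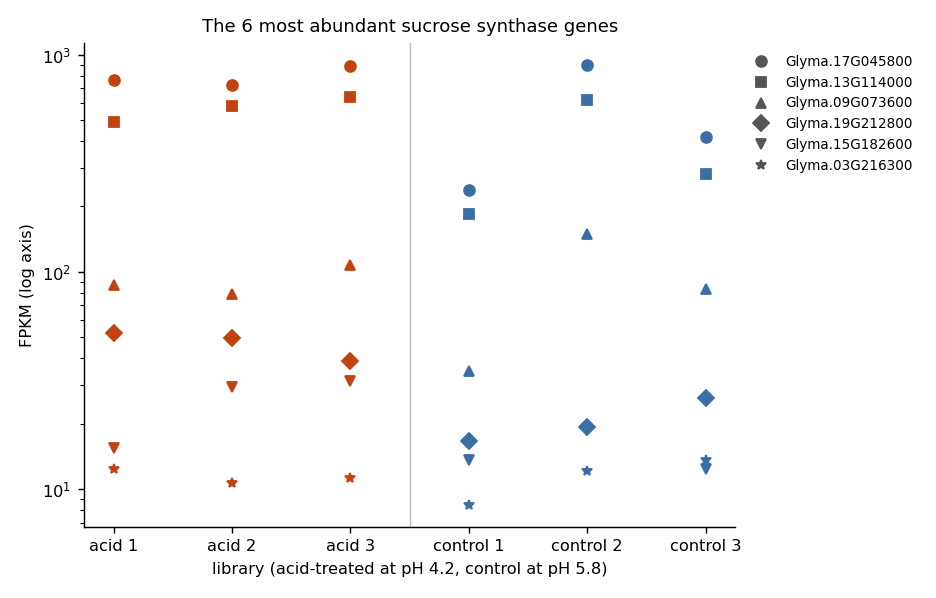
FPKM on a log axis of the 6 most abundant sucrose synthase genes in each library, with acid-treated libraries at left (orange), control libraries at right (blue) and a symbol for each gene. In the 3 most abundant genes, control replicate 2 is the highest of the controls, while Glyma.19G212800 is at 38.7 to 52.5 FPKM in acid-treated and 16.6 to 26.4 FPKM in control libraries and covers the point of Glyma.15G182600 (18.8 FPKM) in control replicate 2.

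Invertases named in the descriptions were all of the alkaline or neutral kind, which work inside cells, in the cytosol or in organelles. The 9 tested genes summed with the 3 untested ones to 110, 92.0 and 100 FPKM in acid-treated roots, against 67.2, 92.2 and 77.3 FPKM in control roots. Control replicate 2 lay among the acid-treated values and the groups overlapped. Glyma.17G037400, described as alkaline/neutral invertase A of mitochondria, had 12.8, 12.3 and 11.3 FPKM in acid-treated roots, against 4.21, 8.48 and 4.66 FPKM in control roots. It was close to uniform in acid-treated roots and did not overlap with the controls. Its log2 fold change of 1.09 (standard error 0.28) was called by DESeq2 (adjusted p = 0.0310) but not by edgeR (adjusted p = 0.158). Without control replicate 2 edgeR called it too, at 1.49 (adjusted p = 0.0125). The most abundant neutral invertases, Glyma.20G177200 and Glyma.10G214700, averaged 38.2 ± 4.79 and 31.2 ± 4.44 FPKM in acid-treated roots and 31.7 ± 5.01 and 25.4 ± 4.47 FPKM in control roots (SD, n = 3). Differences of 0.30 and 0.31 on the log2 scale had 95% intervals of -0.21 to 0.81 and -0.20 to 0.82. The libraries of 3 of the 9 genes lay wholly above the controls, as did 6.66% of all genes tested, and Glyma.07G236000 (0.79) and Glyma.08G143500 (0.88), both chosen after their values were seen, joined Glyma.17G037400 there. Within each library, sucrose synthases exceeded neutral invertases in summed FPKM, by 13.1, 16.2 and 17.2 times in acid-treated roots and by 7.62, 18.8 and 10.9 times in control roots, and these ratios overlapped.

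STP hexose transporters hold the member called by edgeR, Glyma.06G103900, which entered by name with its result known. The 23 genes summed to 117, 85.2 and 94.0 FPKM in acid-treated roots, against 158, 156 and 259 FPKM in control roots, a ratio of 0.518. No acid-treated library reached a control, and control replicate 3 was the highest. Of the 9 genes tested, 3 lay wholly below the controls (9.79% of all genes tested did) and 1 wholly above (6.66% of all genes tested did). The 3 lower genes are all described as sugar transport protein 5 or 5-like. Most of the difference between the group sums lay in these genes. Their mean FPKM in acid-treated and control roots was 14.5 and 70.8 (Glyma.04G102700), 25.2 and 47.3 (Glyma.04G102600), and 0 and 9.29 (Glyma.06G103900). In the RefSeq assembly Glycine_max_v4.0, the genes matched to Glyma.04G102600 and Glyma.04G102800 lie on chromosome 4 with 1 protein-coding gene between them.

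Glyma.06G103900 was detected in control roots only. It had 0, 0 and 0 counts in acid-treated roots, against 123, 103 and 222 counts in control roots, where it reached 7.69, 6.45 and 13.7 FPKM. With 3 counts per library as the floor, it was at least 47.9-fold lower in acid-treated roots (adjusted p = 0.00917 from edgeR). This gene was included by name with its result already known, and it had enough counts for the test through the control libraries alone, so the p-value is given as a description. Its counts were whole numbers in all 6 libraries. The call was kept under each alternative tool, filter, scaling and left-out library but the one without acid-treated replicate 2, where the adjusted p-value was 0.0593 from edgeR.

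Glyma.04G102700 and Glyma.04G102600 were the most abundant STP genes by mean FPKM. Glyma.04G102700 had 18.8, 9.34 and 15.3 FPKM in acid-treated roots, against 62.8, 39.3 and 110 FPKM in control roots. Each acid-treated library was below the lowest control, though the controls differed among themselves by more than the acid-treated libraries did. Its log2 fold change of -2.26 had a standard error of 0.42 (adjusted p = 0.0703 from edgeR, and 1.33e-05 from DESeq2), and edgeR called it without control replicate 2 (adjusted p = 0.0142). Glyma.04G102600 had 29.5, 20.6 and 25.5 FPKM in acid-treated roots, against 36.3, 45.8 and 59.7 FPKM in control roots. Its log2 fold change was -0.88 with a standard error of 0.25 (adjusted p = 0.192 from edgeR), so that its libraries did not overlap but neither tool called it. Glyma.04G102700 exceeded Glyma.04G102600 by 1.73 and 1.85 times in control replicates 1 and 3 and was below it, at 0.858 times, in control replicate 2, whereas in acid-treated roots the ratio was 0.636, 0.455 and 0.600. Glyma.04G102800, also described as sugar transport protein 5-like, held 1, 8 and 5 counts in acid-treated roots, against 16, 16 and 10 counts in control roots, and was not tested.

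Glyma.01G238800 had the opposite direction. It is described as sugar transport protein 13, the name of an Arabidopsis hexose uptake carrier of stressed and infected tissue. Levels were 12.7, 7.31 and 2.90 FPKM in acid-treated roots, against 0.850, 1.53 and 1.90 FPKM in control roots. The acid-treated libraries spread over a wide range and the lowest of them was still above each control. Its log2 fold change of 2.45 had a standard error of 0.54 (adjusted p = 0.110 from edgeR, and 9.03e-04 from DESeq2). The second gene with that description, Glyma.11G004800, had 6.16, 8.02 and 7.93 FPKM in acid-treated roots, against 3.47, 10.8 and 6.61 FPKM in control roots, and the libraries overlapped (log2 fold change 0.14, adjusted p = 0.906 from edgeR). The other abundant members of the group, Glyma.08G035300, Glyma.15G203300 and Glyma.01G067600, had log2 fold changes between -0.36 and -0.074, with overlapping libraries. The last of the tested genes, Glyma.05G228400, averaged 1.29 FPKM over the 6 libraries, with a log2 fold change of 0.19. These 5 genes were chosen to complete the tested members of the group, after their values were seen.

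**Figure D3:**
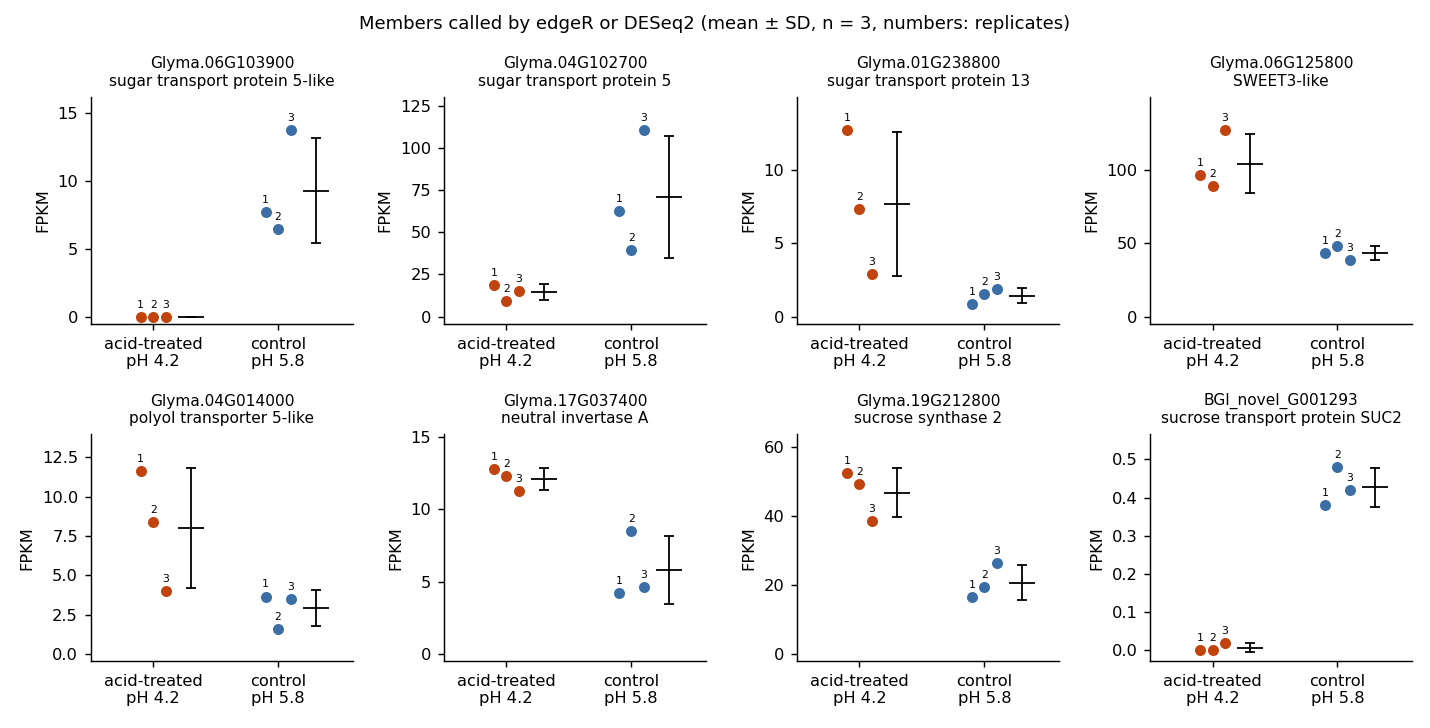
FPKM in each library of the 8 members called by edgeR or DESeq2, with acid-treated libraries at left (orange), control libraries at right (blue), replicate numbers beside the points and the mean ± SD of 3 libraries in black. In each panel the groups do not overlap, and Glyma.06G103900 stands at 0 in the 3 acid-treated libraries.

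SWEET transporters were dominated by a pair of SWEET3-like genes with opposite directions. Glyma.06G125800 had 96.3, 88.9 and 127 FPKM in acid-treated roots, against 43.0, 48.3 and 38.6 FPKM in control roots. Its lowest acid-treated library was well above its highest control, and the controls were close together. The log2 fold change of 1.27 (standard error 0.22) stayed just above the threshold with edgeR (adjusted p = 0.0573) and was called by DESeq2 (adjusted p = 3.18e-05). Without control replicate 2 the adjusted p-value was 0.0316 from edgeR, and with the replicate number as a block it was 0.213 from edgeR. Glyma.14G160100, with the RefSeq symbol SWEET38, had 103, 67.2 and 95.7 FPKM in acid-treated roots, against 168, 96.9 and 183 FPKM in control roots. Its highest acid-treated library passed control replicate 2 and the groups overlapped (log2 fold change -0.72, 95% interval -1.44 to -0.011, adjusted p = 0.413 from edgeR). Within a library, the level of Glyma.06G125800 relative to Glyma.14G160100 was 0.935, 1.32 and 1.33 in acid-treated roots, against 0.257, 0.498 and 0.211 in control roots. The order of the genes was therefore reversed in acid-treated replicates 2 and 3, and together the pair held 70.6% of the summed SWEET FPKM.

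Other SWEET genes varied mostly between replicates. Glyma.08G360500, described as N3-like after a nodule-induced gene, had 20.8, 71.9 and 34.2 FPKM in acid-treated roots, against 46.7, 9.94 and 5.98 FPKM in control roots. Control replicate 1 exceeded acid-treated replicates 1 and 3, so the 95% interval of its log2 fold change was wide, at -0.69 to 2.69. Its counts were not whole numbers, so reads could be shared with a similar gene. Glyma.04G198500, a SWEET14-like gene of the class that exports sucrose in Arabidopsis, had 11.3, 31.4 and 13.2 FPKM in acid-treated roots, against 13.3, 9.38 and 3.28 FPKM in control roots, and overlapped as well. Glyma.08G010000, also SWEET14-like, was lower without overlap, at 2.12, 2.05 and 2.10 FPKM in acid-treated roots, against 3.26, 2.50 and 4.38 FPKM in control roots (log2 fold change -0.67, adjusted p = 0.507 from edgeR). The SWEET2 genes, named after an Arabidopsis carrier of the vacuole membrane in roots, overlapped in both cases, with log2 fold changes of -0.076 in Glyma.15G211800 (standard error 0.20) and 0.92 in Glyma.12G234500 (standard error 0.51). Apart from the pair and Glyma.08G010000, the SWEET genes given here were chosen after their values were seen. Of the 30 SWEET genes 11 were tested, 7 with a positive (16651 of all 33490 genes tested) and 4 with a negative log2 fold change. Their summed FPKM was 270, 293 and 306 in acid-treated roots, against 301, 198 and 270 in control roots.

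Sucrose transporters showed no call by edgeR. Their most abundant members, Glyma.16G157100 and Glyma.02G075100, are described as SUC8. Glyma.16G157100 had 53.4, 49.2 and 44.3 FPKM in acid-treated roots, against 26.3, 101 and 74.2 FPKM in control roots. Glyma.02G075100 had 31.9, 28.2 and 39.0 FPKM in acid-treated roots, against 16.8, 55.2 and 40.8 FPKM in control roots. In both, control replicate 1 was lowest and control replicate 2 highest, and the acid-treated libraries lay inside the range of the controls. Log2 fold changes of -0.43 and -0.16 had 95% intervals of -1.40 to 0.53 and -1.04 to 0.72. Glyma.10G217900, described as a sucrose transporter, was higher without overlap, at 20.0, 19.2 and 27.8 FPKM in acid-treated roots, against 16.9, 18.7 and 14.5 FPKM in control roots (log2 fold change 0.43, adjusted p = 0.500 from edgeR). Tested genes named after SUC4, a sucrose carrier of the vacuole membrane, and SUC3 had log2 fold changes between -0.34 and 0.019. The 19 sucrose transporters together reached 139, 129 and 143 FPKM in acid-treated roots, against 92.0, 208 and 172 FPKM in control roots.

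A predicted gene, BGI_novel_G001293, described as SUC2, was nearly absent from acid-treated roots. It had expected counts of 0, 0 and 0.34 in acid-treated roots, against 8.64, 11.1 and 9.75 in control roots. Low counts kept it out of edgeR's test, and DESeq2 called it lower (adjusted p = 0.0130). With the acid-treated counts rounded to 0 and 3 counts per library as the floor, it was at least 3.22-fold lower. Its counts were not whole numbers in 4 libraries, so reads could have been shared with the 4 other predicted genes of the same description.

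Polyol and ERD6-like transporters had no edgeR call either. Glyma.04G014000, a polyol transporter 5-like gene, had 11.7, 8.42 and 4.03 FPKM in acid-treated roots, against 3.66, 1.62 and 3.52 FPKM in control roots. Its lowest acid-treated library was barely above its highest control, and the log2 fold change of 1.48 (standard error 0.44) was called by DESeq2 alone (adjusted p = 0.0481, and 0.219 from edgeR). Both of the lower genes without overlap are described as polyol transporter 4. Glyma.15G071800 had 4.13, 3.77 and 2.94 FPKM in acid-treated roots, against 5.32, 7.67 and 6.76 FPKM in control roots (log2 fold change -0.84, adjusted p = 0.199 from edgeR). Glyma.13G241700, named after its values were seen, had 1.93, 1.59 and 1.53 FPKM in acid-treated roots, against 2.64, 3.08 and 2.96 FPKM in control roots (log2 fold change -0.76, adjusted p = 0.303 from edgeR). The other tested polyol transporter 4 genes, also named after their values were seen, had overlapping libraries. Their log2 fold changes were -0.27 in Glyma.06G295200, -0.46 in Glyma.12G110600 and, in the other direction, 0.38 in Glyma.13G298500. The most abundant polyol transporters, Glyma.11G119500 and Glyma.02G057900, had log2 fold changes of 0.22 and 0.38 with overlapping libraries, and the sum over the 18 genes was 102, 105 and 101 FPKM in acid-treated roots, against 72.3, 105 and 103 FPKM in control roots.

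None of the 13 tested ERD6-like genes separated the pH-treatments. Glyma.03G241500, the most abundant, had 51.1, 25.7 and 14.6 FPKM in acid-treated roots, against 20.8, 14.3 and 32.2 FPKM in control roots, a spread within the acid-treated group larger than the difference of the means. Glyma.16G138800, named after an Arabidopsis vacuolar glucose exporter, had 17.4, 16.3 and 17.3 FPKM in acid-treated roots, against 14.6, 17.8 and 20.5 FPKM in control roots, with a 95% interval of -0.46 to 0.40 for the log2 fold change. Glyma.13G213300, described as ERD6-like 16 and chosen after its values were seen, had 15.3, 11.1 and 18.7 FPKM in acid-treated roots, against 2.29, 11.2 and 3.44 FPKM in control roots. Control replicate 2 alone overlapped with the acid-treated libraries. Its log2 fold change was 1.44 (adjusted p = 0.323 from edgeR), and without control replicate 2 it was 2.42 (adjusted p = 0.0119 from edgeR). Of the 13 tested ERD6-like genes, 10 had a positive log2 fold change (16651 of all 33490 genes tested). The summed FPKM of the group was 133, 103 and 125 in acid-treated roots, against 82.4, 97.3 and 94.2 in control roots, without overlap and with a ratio of 1.32.

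**Figure D4:**
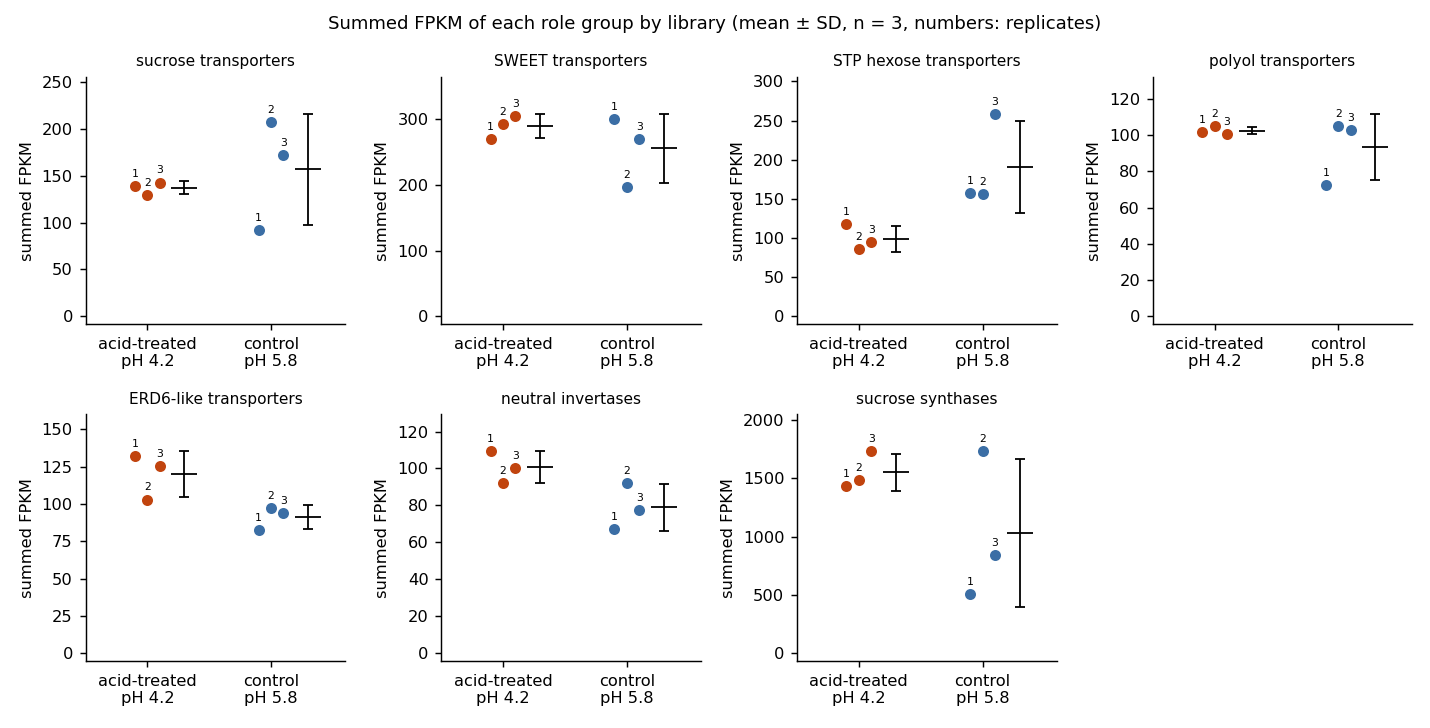
Summed FPKM of all members of each of the 7 role groups in each library, with acid-treated libraries at left (orange), control libraries at right (blue), replicate numbers beside the points and the mean ± SD of 3 libraries in black. The sums of STP hexose transporters (85.2 to 117 FPKM in acid-treated and 156 to 259 FPKM in control libraries) and of ERD6-like transporters do not overlap, while the sucrose synthase sum of control replicate 2 reaches 1735 FPKM.

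The 59 members that were not tested held few counts. Of these, 14 reached 10 counts in a library, and the FPKM of 8 of the 59 did not overlap between the pH-treatments (13.6%, against 7.62% of the 15177 genes not tested and 16.4% of the genes tested). Among those higher in acid-treated roots were 3 polyol transporter 3 genes, Glyma.16G141000 with 1, 3 and 1 counts in acid-treated roots, against 0, 0 and 0 counts in control roots, Glyma.02G058000 with 24, 12 and 4 counts in acid-treated roots, against 0, 4 and 0 counts in control roots (the lowest and the highest tied at 4 counts), and Glyma.11G066500 with 7, 18 and 8 counts in acid-treated roots, against 1, 2 and 4 counts in control roots. Glyma.03G153700, described as SUC4, held 15, 10 and 13 counts in acid-treated roots, against 2, 5 and 4 counts in control roots. Lower was the SWEET14-like gene Glyma.04G198400, with 2, 0 and 5 counts in acid-treated roots, against 8, 13 and 13 counts in control roots. Glyma.09G043200, described as SWEET17, was lower too, with 0, 0 and 0 counts in acid-treated roots, against 6, 5 and 2 counts in control roots. So were Glyma.04G102800 and BGI_novel_G001293, whose counts are given above. These genes were chosen after their values were seen, and DESeq2 called only BGI_novel_G001293 among them (adjusted p = 0.0130). For the others its adjusted p-values were between 0.172 and 0.542, with none given for Glyma.16G141000 and Glyma.09G043200. In the 3 acid-treated libraries 15 members were listed at 0, among them the tested Glyma.06G103900, and in the 3 control libraries 6 were. Such a gene could hold only 1 count at the other pH, as Glyma.13G088800 did in control and Glyma.13G169700 in acid-treated roots. The share over all genes is not given, so no difference between the pH-treatments is read from these counts.

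Other genes of sucrose metabolism gave no edgeR call. Lists by description covered acid invertases, invertase inhibitors, hexokinases, fructokinases, sucrose-phosphate synthases and phosphatases, UDP-glucose pyrophosphorylases, trehalose-phosphate enzymes, monosaccharide-sensing proteins, inositol transporters, plastid sugar transporters and synthases of raffinose sugars. Of 138 such genes 106 were tested, 4 had an unadjusted p-value under 0.05 and were higher in acid-treated roots, 4 were lower, and the median log2 fold change was 0.064. Over all genes tested, 4.21% were higher and 7.61% lower at that limit, so neither count exceeded the background. DESeq2 called 3 higher and 1 lower of 119, with backgrounds of 1.22% and 1.55%. The genes given below are the ones it called, picked by that result, so their values are descriptions. Glyma.17G138500, an acid beta-fructofuranosidase that cleaves sucrose in the vacuole or cell wall, had 33.8, 13.4 and 11.2 FPKM in acid-treated roots, against 2.72, 6.33 and 8.25 FPKM in control roots (log2 fold change 1.79, adjusted p = 0.200 from edgeR). The fructokinase-7 gene Glyma.09G148900, whose enzyme phosphorylates the fructose that sucrose synthase releases, had 4.12, 6.56 and 5.92 FPKM in acid-treated roots, against 2.04, 2.23 and 2.77 FPKM in control roots (log2 fold change 1.35, adjusted p = 0.0946 from edgeR). Neither gene overlapped between the pH-treatments. The trehalose-phosphate phosphatase J gene Glyma.11G239300 had 6.01, 5.12 and 4.71 FPKM in acid-treated roots, against 0.590, 1.63 and 1.53 FPKM in control roots (log2 fold change 2.11, adjusted p = 0.0719 from edgeR). Glyma.03G222000, a galactinol synthase that makes the galactosyl donor of raffinose sugars, was lower, with 5.87, 6.99 and 6.50 FPKM in acid-treated roots, against 10.5, 18.5 and 20.6 FPKM in control roots (log2 fold change -1.34, adjusted p = 0.0896 from edgeR).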

How the data were processed

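Roots of 3 acid-treated and 3 control replicates were sequenced by the authors on a BGISEQ-500 instrument. Per the labels and the methods, reads were mapped with HISAT to Williams82.a2.v1, transcripts were rebuilt with StringTie, and Bowtie2 and RSEM gave the deposited expected counts, which are not normalized, and the deposited FPKM values. Tool versions are not given in the sources used here. The labels name a CTAB-PBIOZOL extraction, whereas the methods name an RNeasy kit.

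Genes that a library does not list were set to 0, and groups follow the pH in the labels. Expected counts were rounded and tested with edgeR 4.0.16 in R 4.3.3 (filterByExpr, TMM, robust quasi-likelihood fit, Benjamini-Hochberg adjustment over 33490 genes). Each standard error is the log2 fold change over the square root of F. Alternatives were DESeq2 1.42.0, RLE factors, no filter, a mean count of at least 50, limma-trend 3.58.1 on log2(FPKM + 1) and log2(FPKM + 0.1), the replicate block, and each library left out. Tests were tried on simulated data. Nothing says that replicates were separate cultures beyond their labels, so p-values measure the spread between these libraries. An exact permutation test of 3 against 3 gives no p below 0.1. By the library totals, a count of 3 corresponds to 0.321 to 0.328 CPM, counting error only. The fold bounds against 3 counts used TMM-scaled library sizes instead. Between replicates, chi-square per degree of freedom was 7.51 to 32.7, so none was a repeat of another.

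Members and lists were chosen with earlier results of these data known. Named are members called by either tool, Glyma.06G103900, the 2 tested genes of highest mean FPKM in each role group, its largest change in each direction among genes without overlap, and by count only untested members with at least 10 counts in a library. Others are named as chosen after their values were seen. Genes of phosphofructokinase were left out of the fructokinase list after its matches were seen. Of the members, 90 had a protein in the RefSeq table (Glycine_max_v4.0), and 80 matched a RefSeq gene that no other gene of the files shared, used for symbols and neighbours. No sequence is shown.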

Additional observations from a re-analysis of the deposited data

How the results depend on the processing

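Of the 286 alternative values for the 23 named members, 265 kept their direction and their side of the threshold, 11 passed it newly, 2 lost it and 8 changed sign. DESeq2 called 5 members higher and 3 lower, edgeR without a filter on low counts 1 higher and 2 lower, and edgeR with RLE factors, a mean count of at least 50 or the block, and limma-trend, called 0 higher and 1 lower. The share of all genes called is given above for the main edgeR fit and DESeq2 only. Leaving out 1 library gave 0 to 3 members called higher and 0 to 2 called lower, and 16 to 29 members without overlap, the highest without control replicate 2, where 36.3% of all genes tested were apart. Signs changed in 5 members with overlapping libraries. These were Glyma.16G138800 with DESeq2 (0.0025), without a filter (0.0072), without acid-treated replicate 2 (0.037) and without control replicate 3 (0.088, range from -0.14), Glyma.03G241500 without acid-treated replicate 1 (-0.14, range over left-out libraries to 0.83), Glyma.11G119500 without control replicate 1 (-0.13, range to 0.61), and Glyma.16G157100 (4.4e-04, range from -0.81) and Glyma.02G075100 (0.24, range from -0.51) without control replicate 2. The cause was not tested. BGI_novel_G001293 lost its call in edgeR without a filter (log2 fold change -6.30, adjusted p = 0.0635 from edgeR). Deviations of same-numbered libraries were not positively correlated (-0.135, -0.054 and -0.373 for replicates 1, 2 and 3). With the replicate block edgeR called 1 member lower, Glyma.06G103900 (adjusted p = 0.0250 from edgeR), and 0 higher. The summed FPKM of STP hexose transporters, acid-treated to control, ranged from 0.470 to 0.630 with 1 library left out. Most of the difference in that sum lay in the tested genes described as sugar transport protein 5 or 5-like.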

Other observations

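The files attach KEGG orthology terms to the members. All 12 sucrose synthases carry the sucrose synthase term, and the 19 sucrose transporters carry a solute carrier term. The 12 neutral invertases, in contrast, carry the terms small subunit ribosomal protein S4 and eukaryotic translation initiation factor 2C, and no term of an invertase. Of the 30 SWEET genes, 28 carry only the solute carrier family 50 term. Glyma.06G191600, described both as a trehalose-phosphate phosphatase and as SWEET16, carries terms of a phosphatase and a peptidase instead, and its level was 3.65, 5.25 and 4.70 FPKM in acid-treated roots, against 5.82, 3.64 and 5.26 FPKM in control roots.

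Members that stand side by side in the RefSeq assembly could differ widely in level. The sucrose transporter genes Glyma.16G156800, Glyma.16G156900, Glyma.16G157000 and Glyma.16G157100 follow each other on chromosome 16 with 0 protein-coding genes between them. Glyma.16G157100 averaged 58.1 FPKM over the 6 libraries, while the other 3 averaged 0.12, 0.052 and 0.085 FPKM. On chromosome 2, Glyma.02G075100 averaged 35.3 FPKM and its neighbour Glyma.02G075000 averaged 0.373 FPKM. The ERD6-like 16 genes Glyma.13G213300 and Glyma.13G213200 on chromosome 13 averaged 10.3 and 1.41 FPKM.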
